A study of Mus musculus with 10 samples.

Results

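The genes examined were the nuclear genes of the mitochondrial respiratory chain, chosen by name: every measured gene whose symbol starts with Nduf, Uqcr, Cox4, Cox5, Cox6, Cox7, Cox8 or Atp5, together with *Sdha*, *Sdhb*, *Sdhc*, *Sdhd*, *Cycs* and *Cyc1*. Of 98 protein-coding mouse genes that fit, 92 had a probe set of their own among the 18193 genes on the arrays. The other 6 were not analysed here. Each gene was read from 1 probe set, the one with the highest mean over the 10 arrays, and levels are log2 values. The 92 genes were 35 complex I subunits (6 core and 29 others), 8 complex I assembly factors, 4 subunits of complex II, 9 of complex III, cytochrome c, 10 of complex IV, 17 of ATP synthase and 8 isoforms known from restricted tissues. *Ndufa4*, now known as a part of complex IV, is counted under complex I by its name. Of the 92, 84 had a mean level of at least 6 and 8 were dimmer.

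Murine T cells were profiled in 5 groups with 2 arrays each. At day 25 of culture these were CD4+ TEM, CD4+ memory and CD8+ TEM cells, set against naïve CD4+ and naïve CD8+ T cells. All came from spleens of wild-type C57BL/6 mice, and the TEM and memory cells arose when sorted naïve (CD62L+ CD44-) T cells were cultured with IL-2 and γ-irradiated lymphoma B cells that carry the Epstein-Barr virus proteins LMP1 and LMP2A. The lymphoma line came from mice in which Cγ1-Cre switches on both proteins in germinal center B cells, and it was passed through Rag2-deficient hosts. The memory group is known from its label alone. Its sample titles carry CM, and whether this stands for central memory is not stated. The authors use central memory for CD62L+ CD44+ cells and TEM for effector-memory (CD62L- CD44+) cells. Labels that describe germinal center B cells and a *Foxo1* status were set aside. That status differs between replicates of 2 groups, CD4+ memory and CD8+ TEM cells. Nothing given here says whether the 2 arrays of a group came from separate mice, so the p-values measure the spread between these arrays, which may be technical.

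The respiratory chain sits in the inner mitochondrial membrane. Complex I takes electrons from NADH and complex II from succinate, both pass them through ubiquinone to complex III, cytochrome c carries them to complex IV, which reduces oxygen, and ATP synthase uses the resulting proton gradient. Naïve T cells live largely on this oxidation, and activated T cells add glycolysis while enlarging their mitochondria. Most subunits are encoded in the nucleus, and their promoters commonly hold sites for NRF1, ETS factors (GABP), YY1 or CREB.

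The promoters of some genes on which the results below turn are shown as examples with and without these sites. RefSeq promoters of 300 bases (250 before the transcription start and 50 after, GRCm38.p6) matched 75 of the 92 genes. The cores searched on both strands were GCGCATGC for NRF1, CCGGAAGT for ETS factors, AAGATGGC for YY1 and TGACGTCA for CREB, and none contains another. *Cox7a1* (chr7:30183921-30184220, + strand) and *Cox6b2* (chr7:4753045-4753344, - strand) hold none of the 4 cores. *Cycs* (chr6:50566520-50566819, - strand) holds a CREB and an NRF1 core, *Uqcr11* (chr10:80406772-80407071, - strand) an ETS and an NRF1 core, and *Ndufaf4* (chr4:24897833-24898132, + strand) NRF1 cores before and at its start. Each sequence runs 5′ to 3′ along the gene's own strand, with capitals marking the cores.
Cox7a1: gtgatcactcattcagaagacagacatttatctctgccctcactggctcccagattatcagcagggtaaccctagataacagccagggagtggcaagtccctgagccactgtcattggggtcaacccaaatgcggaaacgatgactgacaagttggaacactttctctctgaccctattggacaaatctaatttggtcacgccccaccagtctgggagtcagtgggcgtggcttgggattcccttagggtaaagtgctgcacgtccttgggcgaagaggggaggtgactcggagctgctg
Cox6b2: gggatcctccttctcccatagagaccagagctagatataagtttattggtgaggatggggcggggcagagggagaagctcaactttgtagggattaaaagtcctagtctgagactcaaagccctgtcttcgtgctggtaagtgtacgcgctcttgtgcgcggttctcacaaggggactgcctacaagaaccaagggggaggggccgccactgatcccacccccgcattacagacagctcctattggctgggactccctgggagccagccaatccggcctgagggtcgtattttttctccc
Cycs: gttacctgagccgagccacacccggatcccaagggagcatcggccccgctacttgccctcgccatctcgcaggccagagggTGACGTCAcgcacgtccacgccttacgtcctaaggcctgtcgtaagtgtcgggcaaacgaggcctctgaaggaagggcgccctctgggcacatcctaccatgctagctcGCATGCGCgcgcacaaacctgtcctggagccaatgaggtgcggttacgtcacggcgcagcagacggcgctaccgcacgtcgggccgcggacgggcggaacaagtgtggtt
Uqcr11: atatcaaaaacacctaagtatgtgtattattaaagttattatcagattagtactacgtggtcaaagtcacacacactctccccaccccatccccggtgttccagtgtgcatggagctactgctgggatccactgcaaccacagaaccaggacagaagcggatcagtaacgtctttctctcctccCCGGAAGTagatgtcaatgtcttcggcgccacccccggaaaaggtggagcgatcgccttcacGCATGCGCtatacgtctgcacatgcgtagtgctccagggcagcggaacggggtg
Ndufaf4: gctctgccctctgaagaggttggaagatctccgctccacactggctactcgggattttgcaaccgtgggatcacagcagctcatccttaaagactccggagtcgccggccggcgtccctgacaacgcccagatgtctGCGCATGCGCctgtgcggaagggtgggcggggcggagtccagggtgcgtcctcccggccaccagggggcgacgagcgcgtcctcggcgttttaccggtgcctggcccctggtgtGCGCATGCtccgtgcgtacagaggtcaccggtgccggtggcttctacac

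The NRF1 core was found in 12 of the 75 promoters (16%), against 4.88% of the 13272 protein-coding genes on the arrays that had a promoter. The YY1 core was in 10 (13.3%, against 4.17%), the CREB core in 4 (5.33%, against 2.98%) and the ETS core in 5 (6.67%, against 6.87%). Any of the cores was found in 29 of the 75 promoters (38.7%), against 14.3% of 17491 protein-coding genes, so most promoters held none. This last base is wider than the genes on the arrays, and each core was rarer in it (NRF1 3.93%, ETS 5.69%, YY1 3.57%, CREB 2.54%). Of the 4 restricted isoforms with a promoter, 0 held any core, and 4 genes are too few to compare. By the calls defined below, 10 of the 12 genes with an NRF1 core and 47 of the 63 without one rose in CD8+ TEM cells, where 20.9% of all genes rose. In CD4+ TEM cells 3 of the 12 and 21 of the 63 rose, where 16.4% of all genes rose. These are descriptions of letters in a window, and binding was not measured.

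Respiratory chain genes read higher in TEM cells of both subsets than in naïve cells of the same subset, more widely in CD8+ cells. A gene was called when limma's adjusted p over all 18193 genes was under 0.05. In CD4+ TEM cells 27 of the 92 genes rose and 3 fell against naïve CD4+ cells, where 16.4% of all genes rose and 10.1% fell. In CD8+ TEM cells 64 rose and 2 fell against naïve CD8+ cells, where 20.9% of all genes rose and 17.2% fell. In CD4+ memory cells 14 rose and 3 fell against naïve CD4+ cells, where 13.5% of all genes rose and 9.78% fell, so the rising share of the respiratory genes there (15.2%) was near that of all genes. The median log2 change of the 92 genes was 0.36 in CD4+ TEM, 0.26 in CD4+ memory and 0.84 in CD8+ TEM cells, while that of all genes was 0.02, 0.08 and 0.06. Both CD4+ contrasts share the naïve CD4+ arrays. Of the 92 genes 52 had several probe sets, whose directions differed for 17 in CD4+ TEM, 13 in CD4+ memory and 20 in CD8+ TEM cells. Among probe sets with a mean of at least 6 they differed for 7, 7 and 8 of 43 genes. The CD4+ TEM count rests on all 4 of its arrays: 12 and 13 genes rose without CD4+ TEM replicate 1 or 2, and 11 and 12 without naïve CD4+ replicate 1 or 2. In CD4+ memory cells 6 rose without either naïve CD4+ array, 8 without memory replicate 1, and 23 without either naïve CD8+ array, which enter only the pooled spread.

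**Figure D1:**
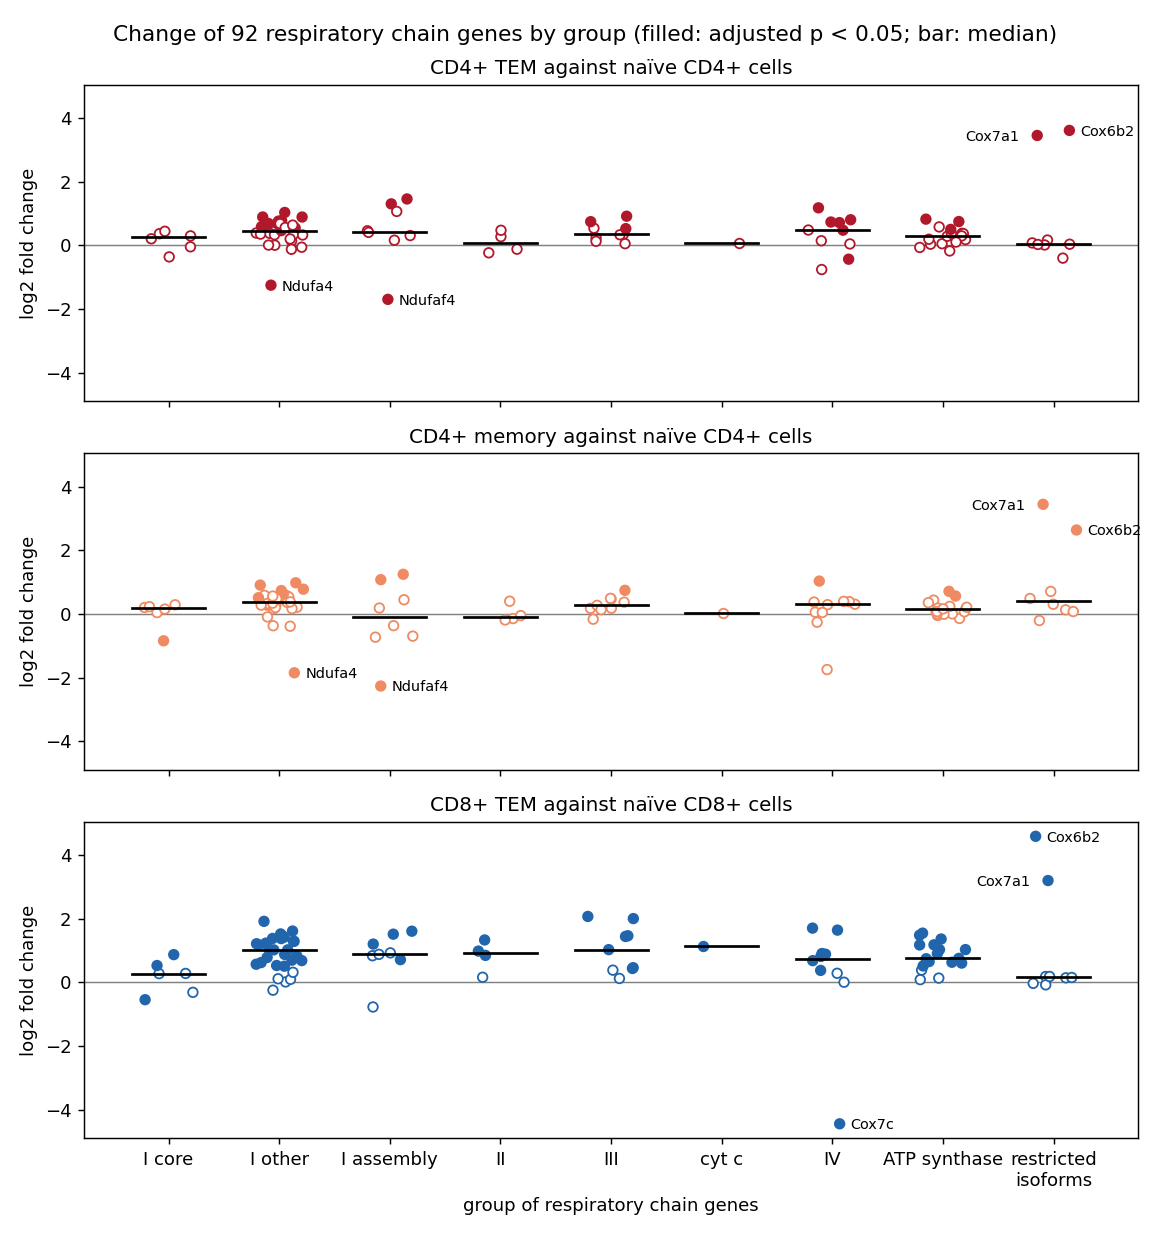
Log2 fold change of the 92 genes against naïve cells of the same subset, by group of genes, in CD4+ TEM, CD4+ memory and CD8+ TEM cells (1 point a gene, filled where called, bar at the median of the group). In CD8+ TEM cells the medians of complex I other subunits and of complex III lie at 1.02 and 1.03, *Cox6b2* and *Cox7a1* lie far above the rest in all 3 panels, and *Cox7c* lies at -4.44.

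These counts depend on how the arrays are put on one scale. Over all probe sets the deposited array medians were close, between 4.65 and 4.75. The medians differ more once each gene is read from its brightest probe set. On the deposited scale the median level of all genes was 5.93 and 5.92 on the CD4+ TEM arrays, 5.74 and 5.74 on the memory arrays and 5.32 and 5.34 on the naïve CD4+ arrays, and it was 6.13 and 6.16 on the CD8+ TEM arrays against 5.57 and 5.66 on the naïve CD8+ arrays. Setting these medians equal moved the median change of all genes to -0.57 in CD4+ TEM, -0.33 in CD4+ memory and -0.47 in CD8+ TEM cells, so the typical gene then read as a fall. The calls then were 6 higher and 31 lower in CD4+ TEM, 5 higher and 17 lower in CD4+ memory, and 37 higher and 14 lower in CD8+ TEM cells, so that the median of the 92 genes turned to -0.24 and -0.15 in CD4+ TEM and memory cells and was 0.31 in CD8+ TEM cells. Relative to the median of all genes, the respiratory genes lay 0.33 higher in CD4+ TEM, 0.18 in CD4+ memory and 0.78 in CD8+ TEM cells, an offset that equal medians leave as it is by construction. Under the alternatives that can move it (probe set choice, filters, quantile normalization and leaving out an array of the contrast) the offsets lay between 0.29 and 0.53, 0.12 and 0.46, and 0.61 and 1.53. Directions of single genes are those of the deposited scale. With equal medians *Atp5o*, *Cox6a1*, *Ndufb1*, *Uqcrb* and *Uqcrh*, which rose in CD8+ TEM cells, turned to values between -0.15 and -0.01, and the 6 CD4+ TEM genes that turned are named where they are described.

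The T cell receptor component *Cd3d* read between 12.9 and 13.2 on every array. *Cd8a* read 7.67 and 8.17 in CD4+ TEM against 5.16 and 4.99 in naïve CD4+ cells, and *Cd4* read 6.51 and 6.89 in CD8+ TEM against 4.30 and 4.10 in naïve CD8+ cells, so the co-receptor of the other subset was higher in both TEM groups. Of 9 measured B cell markers, 4 (44.4%) rose in CD4+ TEM, 4 (44.4%) in CD8+ TEM and 6 (66.7%) in CD4+ memory cells. Of all genes 16.4%, 20.9% and 13.5% rose there. Their summed level was 54.2 to 58.2 on CD4+ TEM, 59.6 to 64.1 on memory and 33.6 to 34.6 on naïve CD4+ arrays, and 54.0 to 58.5 on CD8+ TEM against 38.1 to 50.9 on naïve CD8+ arrays. Of the 9 markers, 6 averaged under 6 in CD4+ TEM, 3 in memory and 9 in naïve CD4+ cells, and 6 in CD8+ TEM against 8 in naïve CD8+ cells. The markers were not alike: *Pax5* read 3.58 to 4.33 throughout, while *Ebf1* read 10.2 to 10.8 in TEM and memory cells. Of 6 myeloid markers 2 (33.3%) rose in each of the 3 contrasts, with the same shares of all genes beside them. Their summed levels were 27.7 to 28.8 on CD4+ TEM, 27.1 to 29.5 on memory and 22.8 to 23.8 on naïve CD4+ arrays, and 29 to 29.6 on CD8+ TEM against 25.1 to 30.1 on naïve CD8+ arrays. The 2 measured NK and 2 measured erythroid markers averaged under 6 in every group. The gap between the 3′ and 5′ *Gapdh* control probe sets, a sign of RNA integrity, was 0.91 to 1.31 in TEM, 1.13 and 1.72 in memory and 2.42 to 2.75 in naïve cells. The same gap for *Actb* was 1.48 and 1.49 in CD4+ TEM, 2.10 and 1.59 in memory and 1.46 and 1.24 in naïve CD4+ cells, and 0.77 and 0.84 in CD8+ TEM against 2.13 and 1.73 in naïve CD8+ cells, so CD8+ TEM cells had the smaller gap for both genes, while CD4+ TEM cells had the smaller gap for *Gapdh* and a slightly larger one for *Actb* than naïve CD4+ cells. The part of these cells and of RNA quality in the results was not tested. In bulk samples a shift in the mix of cells and a shift in RNA per cell cannot be told apart.

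In complex I, the largest complex, most calls were among the non-core subunits, which are 29 of the 35 subunits counted. Of the 29 non-core genes 12 rose and 1 fell in CD4+ TEM cells (median log2 change 0.47), 6 rose and 1 fell in CD4+ memory cells (0.36), and 24 rose and 0 fell in CD8+ TEM cells (1.02). The 1 that fell in both CD4+ contrasts was *Ndufa4*, which is grouped here by its name. The rising shares were 41.4%, 20.7% and 82.8%, against 16.4%, 13.5% and 20.9% of all genes. The falling shares were 3.4%, 3.4% and 0%, against 10.1%, 9.78% and 17.2% of all genes. *Ndufv3*, a small subunit of the NADH-oxidising module, read 13.15 and 13.18 in CD4+ TEM, 13.00 and 13.07 in CD4+ memory and 12.11 and 12.14 in naïve CD4+ cells, and 13.14 and 13.19 in CD8+ TEM against 12.01 and 12.27 in naïve CD8+ cells. The TEM and memory arrays all stood above the naïve ones, with a log2 change of 1.04 in CD4+ TEM cells (adjusted p = 0.000803) and 1.02 in CD8+ TEM cells (adjusted p = 0.000505), whose difference was 0.01 (interval -0.43 to 0.45). *Ndufs5*, an accessory subunit of the membrane arm, read 9.97 and 9.90 in CD4+ TEM against 9.22 and 9.37 in naïve CD4+ cells, and 10.46 and 10.39 in CD8+ TEM against 8.06 and 8.94 in naïve CD8+ cells. Its groups do not overlap in either subset, but the change was called only in CD8+ cells (1.92, SE 0.28, adjusted p = 0.000872, against 0.64, SE 0.28, adjusted p = 0.145), and the difference itself was not called.

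*Ndufb8* and *Ndufb9*, also of the membrane arm, rose in all 3 contrasts. *Ndufb9* read 11.19 and 11.31 in CD4+ TEM, 11.52 and 11.15 in memory and 10.36 and 10.36 in naïve CD4+ cells, and 11.37 and 11.43 in CD8+ TEM against 9.42 and 10.14 in naïve CD8+ cells. The lowest TEM or memory array stood above the highest naïve array (log2 changes 0.89, 0.98 and 1.62, in CD4+ TEM, CD4+ memory and CD8+ TEM cells). The brightest *Ndufb8* probe set rose by 0.89 in CD4+ TEM, 0.64 in CD4+ memory and 1.38 in CD8+ TEM cells, whereas a second one at a mean of 6.08 had changes of -2.10, -2.0 and -1.57 in CD4+ TEM, CD4+ memory and CD8+ TEM cells. *Ndufa12* and *Ndufb2*, which rose by 0.78 and 0.77 in CD4+ TEM and by 1.38 and 1.42 in CD8+ TEM cells, each also had a dimmer probe set that read lower in both. *Ndufa8*, *Ndufa1* and *Ndufb6* rose in CD4+ TEM cells by 0.59, 0.55 and 0.47 on the deposited scale and turned to -0.0054, -0.04 and -0.12 with equal array medians.

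The 6 measured core subunits of complex I, which hold the flavin and iron-sulfur centres, had few calls. In CD4+ TEM cells limma called 0 of the 6 (1 at an unadjusted p under 0.05), and their changes ran between -0.36 and 0.45. In CD8+ TEM cells *Ndufv2* rose by 0.87 (SE 0.17, adjusted p = 0.00363). *Ndufs8* rose there by 0.53, with an adjusted p of 0.0366. *Ndufs1*, the largest of the iron-sulfur subunits, read 9.20 and 9.30 in CD4+ TEM, 8.68 and 8.86 in CD4+ memory and 9.78 and 9.44 in naïve CD4+ cells, and 9.71 and 9.62 in CD8+ TEM against 10.15 and 10.26 in naïve CD8+ cells. It was lower than in naïve cells on every TEM and memory array. The falls in CD4+ memory (-0.84, SE 0.16, adjusted p = 0.00642) and CD8+ TEM cells (-0.54, SE 0.16, adjusted p = 0.0275) were called, and the change in CD4+ TEM cells (-0.36, adjusted p = 0.146) was not. *Ndufs3*, *Ndufs7* and *Ndufv1* changed by 0.30, 0.21 and 0.37 in CD4+ TEM and by 0.28, -0.31 and 0.28 in CD8+ TEM cells, with no call.

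*Ndufa4* fell in CD4+ cells. It was named as a complex I subunit and is now known as a part of complex IV. It read 8.48 and 8.19 in CD4+ TEM, 7.92 and 7.55 in CD4+ memory and 9.55 and 9.62 in naïve CD4+ cells, and 9.09 and 9.07 in CD8+ TEM against 9.06 and 9.58 in naïve CD8+ cells. All 4 CD4+ culture-derived arrays lay below the naïve CD4+ ones, while the CD8+ groups overlap. It fell by 1.25 in CD4+ TEM (SE 0.21, adjusted p = 0.00309) and by 1.85 in CD4+ memory cells (SE 0.21, adjusted p = 0.000503), and both calls held in all 19 alternatives. The CD8+ change was -0.24 (interval -0.73 to 0.25), and the difference between subsets was not called.

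The 8 complex I assembly factors, which build the enzyme without staying in it, split. *Ndufaf3* and *Ndufaf7*, factors for early intermediates, rose in all 3 contrasts. *Ndufaf3* read 8.87 and 9.10 in CD4+ TEM, 8.91 and 8.60 in memory and 7.66 and 7.70 in naïve CD4+ cells, and 8.99 and 8.97 in CD8+ TEM against 6.98 and 7.76 in naïve CD8+ cells. The TEM and memory arrays were at least 8.60 and the naïve arrays at most 7.76 (changes 1.31, 1.08 and 1.61 in CD4+ TEM, CD4+ memory and CD8+ TEM cells). *Ndufaf7*, a mitochondrial methyltransferase, rose by 1.46 (SE 0.20) in CD4+ TEM, 1.25 in CD4+ memory and 0.72 in CD8+ TEM cells. *Ndufaf1* and *Ndufaf2* rose in CD8+ TEM cells alone by the test, by 1.52 and 1.21, and the difference between subsets was not called for either.

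*Ndufaf4* fell instead. It read 7.49 and 8.18 in CD4+ TEM, 7.68 and 6.86 in CD4+ memory and 9.55 and 9.51 in naïve CD4+ cells, and 8.92 and 8.87 in CD8+ TEM against 9.39 and 9.95 in naïve CD8+ cells. The groups do not overlap in either subset, and the memory pair is the widest. It fell by 1.69 in CD4+ TEM (SE 0.33, adjusted p = 0.00592) and by 2.26 in CD4+ memory cells (SE 0.33, adjusted p = 0.00169), calls that held in all 19 alternatives, and its second probe set changed by -1.01 and -2.30. The CD8+ change of -0.77 was not called (adjusted p = 0.105). *Ndufaf6* gave the only call among the 92 genes between CD4+ TEM and CD4+ memory cells, where 3.89% of all genes were higher and 1.64% lower in TEM cells. It read 7.35 and 7.07 in CD4+ TEM and 6.12 and 4.78 in memory cells (1.76, SE 0.41, adjusted p = 0.0484), and the call was lost in 13 of 19 alternatives. Lower in TEM cells were 0 genes by limma (0 at an unadjusted p under 0.05).

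In complex II, which also serves the tricarboxylic acid cycle, calls against naïve cells were made in CD8+ TEM cells. *Sdhb*, its iron-sulfur subunit, read 9.93 and 9.65 in CD4+ TEM, 9.81 and 9.62 in CD4+ memory and 9.85 and 9.96 in naïve CD4+ cells, and 10.67 and 10.82 in CD8+ TEM against 9.66 and 9.85 in naïve CD8+ cells. The CD8+ TEM arrays stood above all 8 others, which lay within 9.62 to 9.96. The rise in CD8+ TEM cells was 0.99 (SE 0.16, adjusted p = 0.00145), against a change of -0.12 in CD4+ TEM cells, and the CD4+ minus CD8+ difference of -1.10 was called (SE 0.22, adjusted p = 0.0177). *Sdhc*, a membrane anchor, rose by 1.34 in CD8+ TEM cells (SE 0.17) and changed by 0.28 in CD4+ TEM cells (difference -1.06, adjusted p = 0.0285). *Sdhd*, the other anchor, rose by 0.85 in CD8+ TEM cells (adjusted p = 0.00575) and changed by 0.48 in CD4+ TEM cells (adjusted p = 0.0901). *Sdha*, the flavoprotein, was called in neither (-0.23 in CD4+ TEM, 0.16 in CD8+ TEM cells), and in CD4+ memory cells limma called 0 of the 4 (0 at an unadjusted p under 0.05).

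In complex III 7 of 9 genes rose in CD8+ TEM, 3 in CD4+ TEM and 1 in CD4+ memory cells, with none lower. The share in memory cells (11.1%) was near the 13.5% of all genes. In CD4+ TEM and CD8+ TEM cells the shares were 33.3% and 77.8%, against 16.4% and 20.9% of all genes. *Uqcr11*, a small subunit, read 9.48 and 9.44 in CD4+ TEM, 9.05 and 9.03 in memory and 8.51 and 8.58 in naïve CD4+ cells, and 10.08 and 10.05 in CD8+ TEM against 7.63 and 8.49 in naïve CD8+ cells. It rose 4.02-fold in CD8+ TEM cells (2.01 on the log2 scale, SE 0.24, adjusted p = 0.000321) and by 0.92 in CD4+ TEM cells (SE 0.24, adjusted p = 0.0255), the groups standing apart in both. *Uqcrq*, the ubiquinone-binding small subunit, read 10.28 and 10.15 in CD4+ TEM, 9.90 and 9.78 in memory and 9.49 and 9.45 in naïve CD4+ cells, and 10.57 and 10.54 in CD8+ TEM against 8.33 and 8.63 in naïve CD8+ cells. It rose by 2.07 in CD8+ TEM (SE 0.15, adjusted p = 1.81e-05) and by 0.75 in CD4+ TEM cells (SE 0.15, adjusted p = 0.00631), although a dim probe set with a mean of 4.11 changed by -2.14 in CD8+ TEM cells.

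*Uqcrc1*, a core protein of complex III, read 9.39 and 9.20 in CD4+ TEM, 9.20 and 8.96 in memory and 9.05 and 9.43 in naïve CD4+ cells, and 10.18 and 10.33 in CD8+ TEM against 8.69 and 8.93 in naïve CD8+ cells. The CD4+ groups overlap, and the CD8+ TEM arrays stood above all others. Its rise in CD8+ TEM cells was 1.44 (SE 0.18, adjusted p = 0.000400), its change in CD4+ TEM cells 0.06 (interval -0.37 to 0.48), and the difference of -1.39 (SE 0.26, adjusted p = 0.0131) was the largest in size among the called genes of this direction. *Uqcrfs1*, the Rieske iron-sulfur protein, rose by 1.47 in CD8+ TEM, 0.53 in CD4+ TEM and 0.74 in CD4+ memory cells, with the CD4+ TEM value turning to -0.06 with equal array medians. *Cyc1*, cytochrome c1, changed by 0.35 in CD4+ TEM and 0.39 in CD8+ TEM cells with no call, and *Uqcrc2*, the second core protein, by 0.24 and 0.13.

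Cytochrome c itself, *Cycs*, read 11.41 and 11.54 in CD4+ TEM, 11.43 and 11.37 in memory and 11.42 and 11.35 in naïve CD4+ cells, and 11.77 and 11.83 in CD8+ TEM against 10.54 and 10.76 in naïve CD8+ cells. The 6 CD4+ arrays lay between 11.35 and 11.54, and the naïve CD8+ arrays were the lowest of the 10. It rose by 1.15 in CD8+ TEM cells (SE 0.14, adjusted p = 0.000277) and changed by 0.09 in CD4+ TEM cells (interval -0.22 to 0.41), a called difference (-1.06, SE 0.19, adjusted p = 0.0120). Its next 2 probe sets, with means of 10.53 and 10.27, read higher by 1.67 and 2.02 in CD8+ TEM and by 0.67 and 1.10 in CD4+ TEM cells, so the size of the CD4+ change depends on the probe set.

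In complex IV, the oxidase, 5 of 10 genes rose and 1 fell in CD4+ TEM, 1 rose in CD4+ memory, and 7 rose and 1 fell in CD8+ TEM cells. *Ndufa4* is not among the 10. The rising share in memory cells (10%) was near the 13.5% of all genes. In CD4+ TEM and CD8+ TEM cells the rising shares were 50% and 70%, against 16.4% and 20.9% of all genes. The falling share was 10% in each, against 10.1% and 17.2% of all genes. *Cox8a*, the ubiquitous smallest subunit, read 11.34 and 11.23 in CD4+ TEM, 11.08 and 11.19 in memory and 10.10 and 10.11 in naïve CD4+ cells, and 11.31 and 11.31 in CD8+ TEM against 9.53 and 9.80 in naïve CD8+ cells. It rose in all 3 contrasts, by 1.18 (SE 0.14, adjusted p = 0.000468), 1.03 and 1.64, with no overlap. *Cox5a*, a nuclear subunit of the same enzyme, rose by 0.81 in CD4+ TEM and 1.71 in CD8+ TEM cells and *Cox6c* by 0.72 and 0.91. *Cox4i1*, the main isoform of the regulatory subunit 4, read 12.47 and 12.46 in CD4+ TEM, 12.48 and 12.46 in memory and 12.46 and 12.38 in naïve CD4+ cells, and 12.49 and 12.50 in CD8+ TEM against 11.53 and 11.68 in naïve CD8+ cells. Only the naïve CD8+ arrays stood apart (CD8+ change 0.89, CD4+ change 0.05, difference -0.84, SE 0.18, adjusted p = 0.0198). *Cox5b* was the 1 gene called higher in CD4+ TEM (0.74) and not in CD8+ TEM cells (0.29), where another of its probe sets, with a mean of 10.65, read 1.0 higher. *Cox7a2l* fell by 0.43 in CD4+ TEM cells (SE 0.13, adjusted p = 0.0383), a call lost in 8 of 17 alternatives.

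*Cox7c* stood by itself. It read 4.82 and 4.77 in CD4+ TEM, 3.37 and 4.24 in memory and 6.12 and 4.99 in naïve CD4+ cells, and 4.87 and 5.19 in CD8+ TEM against 10.48 and 8.46 in naïve CD8+ cells. It was dim on 8 arrays and bright on the 2 naïve CD8+ arrays, with a log2 change of -4.44 in CD8+ TEM cells (SE 0.64, adjusted p = 0.000773), whose dim side may be background. Its other probe set, dimmer still, showed the same pattern. Of the 184 probe sets of the 92 genes, 6 (3.26%) read at least 1 log2 unit higher on both naïve CD8+ arrays than on all others, namely both of *Cox7c* and 1 dimmer set each of *Atp5c1*, *Cox5b*, *Cox8a* and *Ndufab1*. Among all 45037 probe sets 2.66% did so, against 1.04% for naïve CD4+ and 0.12% for CD4+ TEM arrays. Whether these signals came from the mature messages was not tested.

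**Figure D2:**
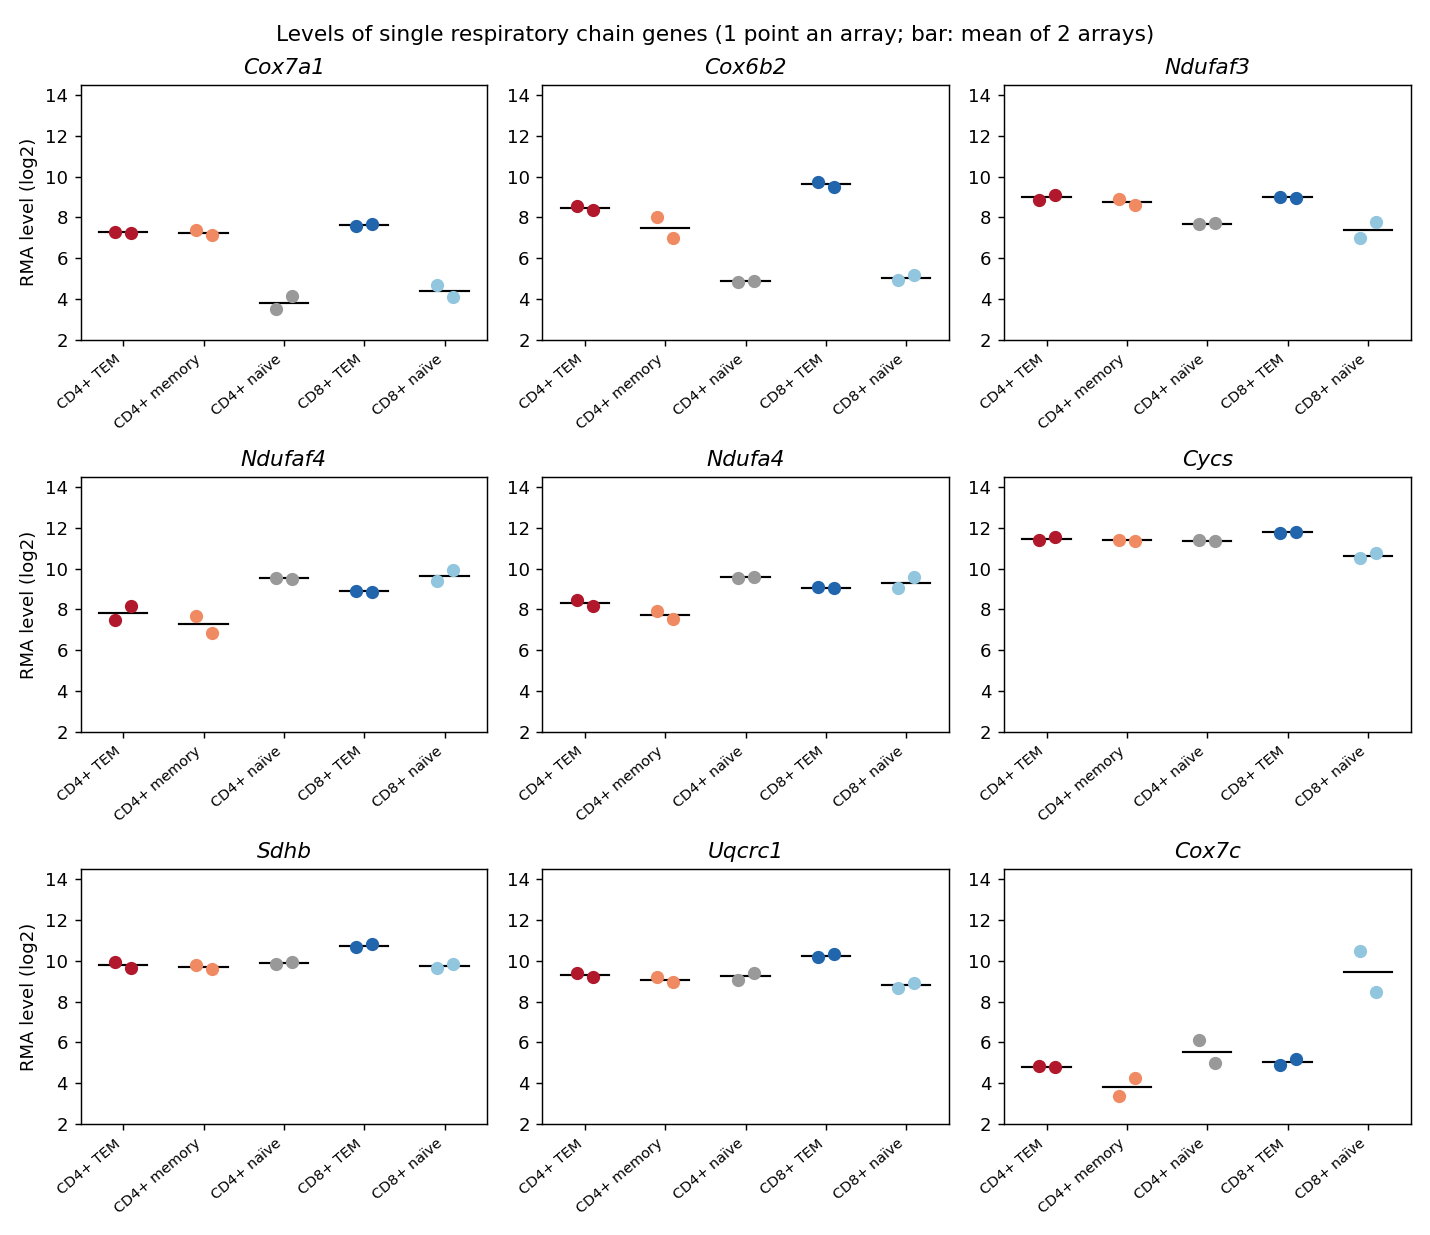
Log2 levels of 9 genes on each array, with 1 point an array and a bar at the mean of 2, in CD4+ TEM, CD4+ memory, naïve CD4+, CD8+ TEM and naïve CD8+ cells. *Cox7a1*, *Cox6b2* and *Ndufaf3* are higher in TEM and memory than in naïve cells, *Ndufaf4* and *Ndufa4* are lowest in CD4+ TEM and memory cells, *Sdhb* and *Uqcrc1* are highest in CD8+ TEM cells, and *Cox7c* is bright in naïve CD8+ cells.

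Of the 17 ATP synthase genes 14 rose in CD8+ TEM, 3 in CD4+ TEM and 2 in CD4+ memory cells, with none lower. The shares in CD4+ TEM (17.6%) and memory cells (11.8%) were near those of all genes (16.4% and 13.5%). In CD8+ TEM cells the share was 82.4%, against 20.9% of all genes. *Atp5d* and *Atp5k*, the δ subunit of the catalytic head and subunit e of the membrane part, rose in all 3 contrasts, by 0.83 and 0.75 in CD4+ TEM, 0.71 and 0.57 in CD4+ memory and 0.75 and 1.18 in CD8+ TEM cells. The *Atp5k* call in CD4+ memory cells was lost in 13 of 18 alternatives. *Atp5md*, a small membrane subunit, rose by 0.51 in CD4+ TEM cells and turned to -0.09 with equal array medians. The 3 genes for the c-ring, *Atp5g1*, *Atp5g2* and *Atp5g3*, encode the same mature protein and rose in CD8+ TEM cells by 1.48, 1.55 and 0.66. *Atp5g1* read 11.34 and 11.32 in CD4+ TEM, 10.91 and 10.97 in memory and 10.90 and 10.99 in naïve CD4+ cells, and 11.91 and 11.85 in CD8+ TEM against 10.27 and 10.52 in naïve CD8+ cells. The naïve CD8+ arrays were the lowest and the CD8+ TEM arrays the highest (difference -1.10, SE 0.19, adjusted p = 0.0102), although a dim *Atp5g1* probe set with a mean of 3.12 changed by -0.81 in CD8+ TEM cells. *Atp5b*, the catalytic β subunit, rose by 1.03 in CD8+ TEM cells and changed by 0.24 in CD4+ TEM cells, a called difference. *Atp5a1*, the α subunit of the same head, changed by 0.09 in CD8+ TEM and -0.17 in CD4+ TEM cells and was called in neither.

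The largest rises of the whole set belonged to isoforms that other tissues use. *Cox7a1*, the heart and skeletal muscle form of a complex IV subunit, read 7.30 and 7.22 in CD4+ TEM, 7.37 and 7.13 in CD4+ memory and 3.49 and 4.12 in naïve CD4+ cells, and 7.56 and 7.65 in CD8+ TEM against 4.70 and 4.11 in naïve CD8+ cells. All 6 TEM and memory arrays were at least 7.13 and all 4 naïve arrays at most 4.70. It rose by 3.45 on the log2 scale in CD4+ TEM (SE 0.25, adjusted p = 3.41e-05), 3.44 in CD4+ memory and 3.20 in CD8+ TEM cells (adjusted p = 3.24e-05). *Cox6b2*, the testis form of another, read 8.58 and 8.37 in CD4+ TEM, 8.0 and 6.99 in CD4+ memory and 4.83 and 4.89 in naïve CD4+ cells, and 9.73 and 9.51 in CD8+ TEM against 4.92 and 5.15 in naïve CD8+ cells. The naïve arrays were alike and dim, and the CD8+ TEM arrays were the brightest. It rose by 3.61 in CD4+ TEM (SE 0.29, adjusted p = 6.05e-05), 2.64 in CD4+ memory and 4.59 in CD8+ TEM cells (SE 0.29, adjusted p = 1.13e-05). The naïve readings of both genes lie near or below the median of all probe sets (4.65 to 4.75 by array) and may be background, so these sizes are no exact folds.

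The calls for *Cox7a1* and *Cox6b2* held in all 19 alternatives in each of these contrasts. Each gene has 1 probe set, so no second reading was at hand. The other 6 isoforms did not pass the test in any contrast: *Cox6a2* (muscle) read 5.70 to 6.49 over the 10 arrays, *Cox4i2* (lung) 3.72 to 4.90, *Cox8b* (muscle) 3.55 to 5.22, *Cox8c* (testis) 4.53 to 5.44, *Ndufa4l2* (hypoxic cells) 4.55 to 4.99 and *Cox7b2* (testis) 2.39 to 2.68. The ubiquitous partner genes *Cox7a2* and *Cox6b1* changed by 0.48 and 0.49 in CD4+ TEM cells, called for *Cox7a2* alone and turning to -0.11 for it with equal array medians, and by 0.69 and 0.82 in CD8+ TEM cells, called for both.

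The CD8+ change was above the CD4+ change for 75 of the 92 genes (81.5%, against 53% of all genes). Of 27 genes that rose in CD4+ TEM cells 26 (96.3%) also rose in CD8+ TEM cells, where they made up 40.6% of the 64, while over all genes these shares were 74.5% and 58.4%. Pearson's r of the CD4+ and CD8+ changes across the 92 genes was 0.74, and 0.67 without *Cox6b2*, *Cox7a1* and *Cox7c*. Genes are not independent replicates, and the arrays share one normalization. In the test of the difference, the CD4+ change was lower than the CD8+ change for 14 genes and higher for *Cox7c*, while of all genes 4.49% were lower and 8.03% higher. The 14 were *Uqcrc1*, *Uqcrq*, *Uqcrfs1*, *Sdhb*, *Sdhc*, *Cycs*, *Cox4i1*, *Atp5b*, *Atp5g1*, *Atp5j*, *Atp5l*, *Atp5pb*, *Ndufa8* and *Ndufb6*, with differences between -1.39 and -0.71.

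**Figure D3:**
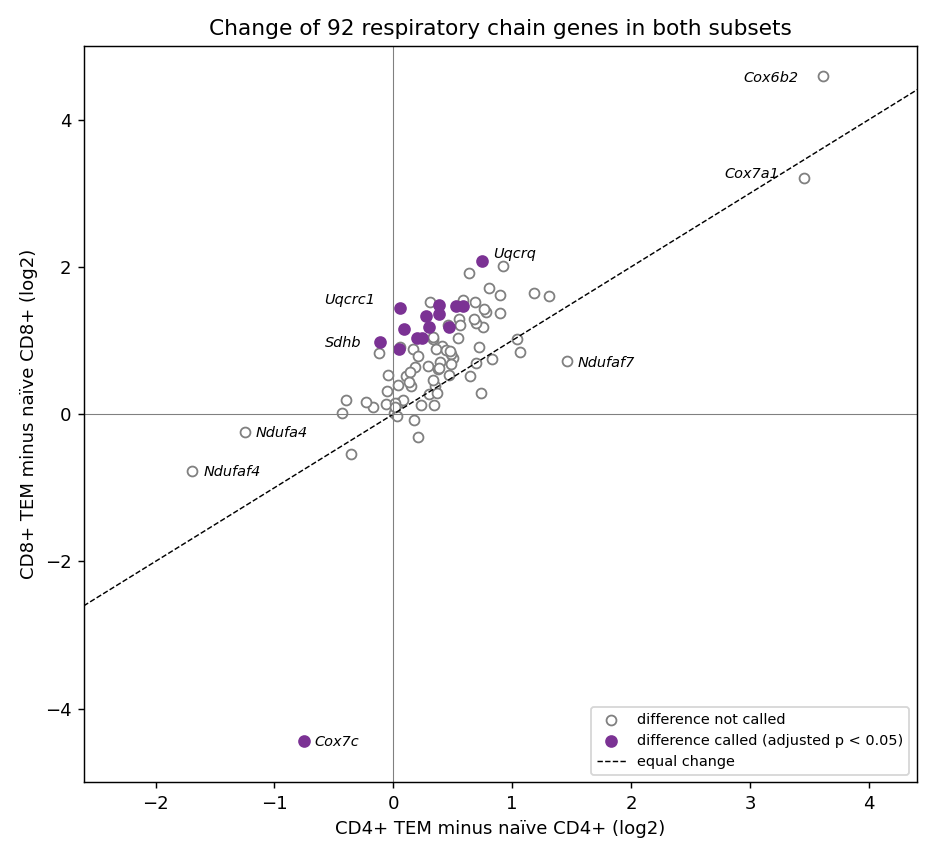
Log2 change in CD4+ TEM cells (x axis) and in CD8+ TEM cells (y axis), each against naïve cells of the subset, for the 92 genes, with the line of equal change. Filled points mark the 15 genes with a called difference, 14 above the line and *Cox7c* below it.

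The subsets were also set against each other directly, a comparison added once the levels had been seen. Over the 92 genes the median difference from the naïve CD4+ mean was 0.36 and 0.35 on the CD4+ TEM arrays, 0.25 and 0.28 on the memory arrays, 0.40 and 0.43 on the CD8+ TEM arrays, and -0.53 and -0.22 on the naïve CD8+ arrays. Naïve CD4+ cells read higher than naïve CD8+ cells for 24 genes and lower for 4, where 6.65% of all genes were higher and 13.9% lower. Among the 24 were *Uqcrq* (0.99), *Ndufb6* (0.92), *Atp5g2* (0.81), *Cox4i1* (0.81) and *Atp5l* (0.79), and the 4 were *Cox7c* (-3.92), *Ndufaf7* (-0.81), *Ndufs1* (-0.60) and *Cox5b* (-0.53). CD4+ TEM cells read lower than CD8+ TEM cells for 2 genes, *Uqcrc1* (-0.96, SE 0.18, adjusted p = 0.0251) and *Sdhb* (-0.95, SE 0.16, adjusted p = 0.0157), and higher for 0 (1 at an unadjusted p under 0.05), where 3.53% of all genes were lower and 2.19% higher. These counts moved with the fit: with only the groups compared, naïve CD4+ cells were higher for 5 genes and lower for 1, and CD4+ TEM cells higher for 0 and lower for 5. Naïve CD4+ cells were higher for 6 and 5 genes without naïve CD4+ replicate 1 or 2, and for 7 and 41 without naïve CD8+ replicate 1 or 2.

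The naïve CD8+ pair was itself uneven. Replicate 1 read lower than replicate 2 for 78 of the 92 genes (84.8%, against 55.8% of all genes), with a median gap of -0.32, while in the other groups the median gap was 0.03 at most. Without replicate 1 the median CD8+ change was 0.66, with 54 genes higher and 2 lower, and without replicate 2 it was 0.99, with 64 higher and 1 lower. The CD4+ change was then called lower for 7 genes without replicate 1 and for 30 without replicate 2, and for 2 to 6 without any 1 array of CD4+ TEM, naïve CD4+ or CD8+ TEM cells. Replicate 2 was also the array with the highest B cell marker sum of the naïve cells (50.9), and its part was not tested.

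**Figure D4:**
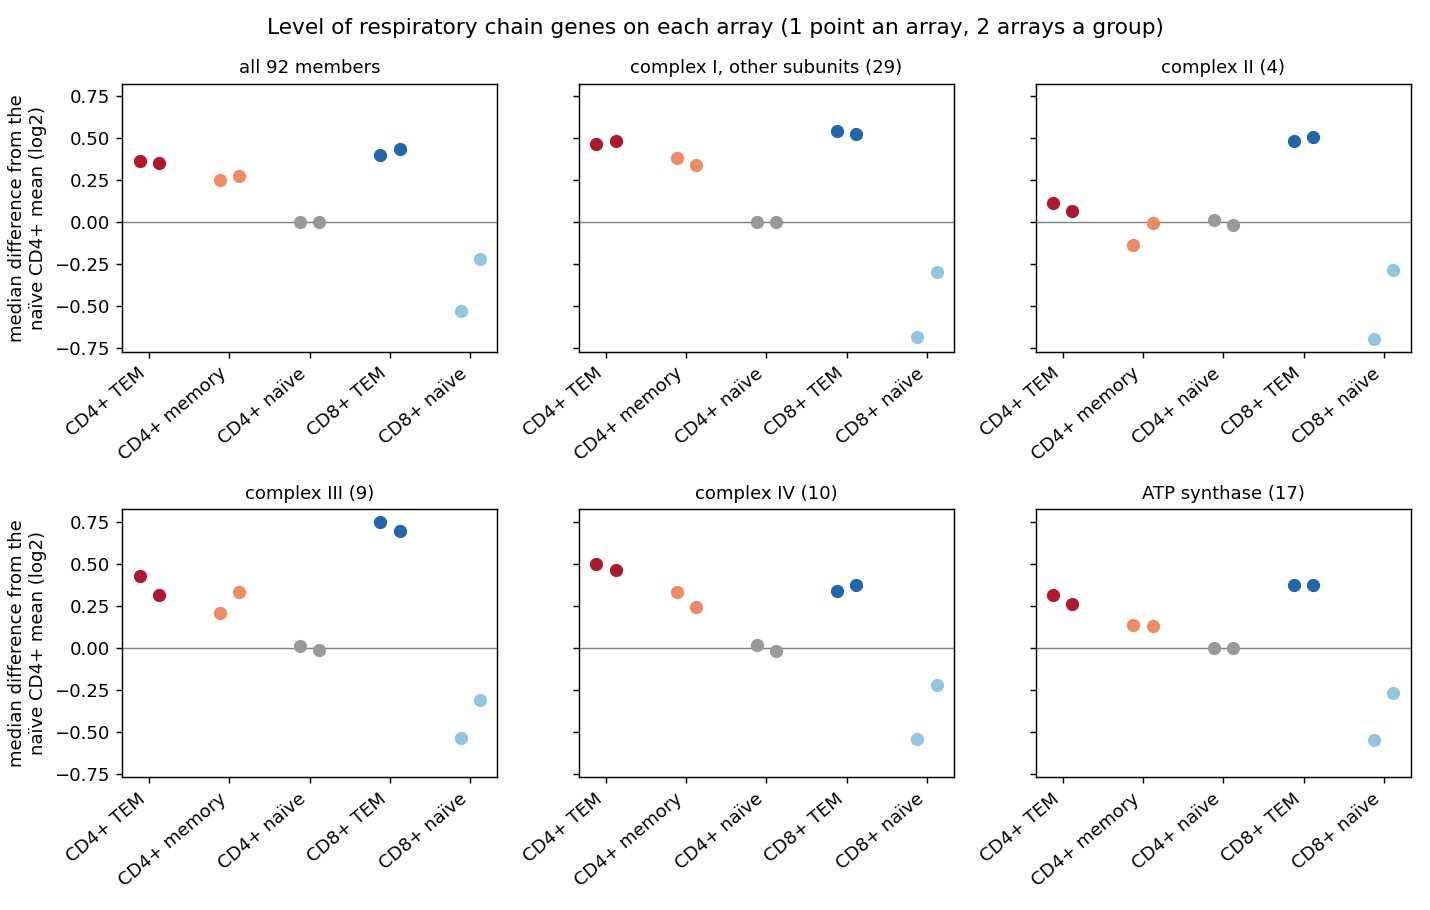
Median difference of each array from the mean of the naïve CD4+ arrays, over all 92 genes and over 5 of its groups, with 1 point an array (y axis in log2 units). CD8+ TEM arrays lie highest and naïve CD8+ arrays lowest in most panels, complex II is near 0 in CD4+ TEM and memory cells, and the naïve CD8+ arrays lie apart from each other.

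Genes around the chain were counted from lists chosen by pathway, and their directions too are those of the deposited scale. Of all genes 16.4%, 13.5% and 20.9% rose and 10.1%, 9.78% and 17.2% fell in CD4+ TEM, CD4+ memory and CD8+ TEM cells. Of 15 measured glycolysis genes 15 rose in CD4+ TEM, CD4+ memory and CD8+ TEM cells alike, with median changes of 1.77, 1.79 and 1.91. The largest were *Hk2*, which traps glucose (6.91, 6.55 and 5.0), the lactate exporter *Slc16a3* (6.34, 6.09 and 6.21), *Aldoc* (5.56, 5.37 and 6.74) and *Tpi1* (4.26, 4.03 and 4.57). Of 76 mitochondrial ribosomal protein genes 18 rose and 1 fell in CD4+ TEM, 9 rose and 2 fell in CD4+ memory and 47 rose and 1 fell in CD8+ TEM cells, with medians of 0.28, 0.18 and 0.88, which turned to -0.31 and -0.23 in CD4+ TEM and memory cells and were 0.35 in CD8+ TEM cells with equal array medians. The glycolysis genes then still rose for 14 of 15 in CD4+ TEM, 15 in CD4+ memory and 13 in CD8+ TEM cells. On the deposited scale the rising share of the mitochondrial ribosomal genes in CD4+ memory cells (11.8%) was near that of all genes (13.5%). *Mrpl45* (1.86 and 2.67 in CD4+ and CD8+ TEM cells), *Mrpl14* (1.57 and 2.65), *Mrpl17* (1.11 and 2.18) and *Mrps25* (0.81, not called, and 2.18) had the largest rises in CD8+ TEM cells. Of 12 tricarboxylic acid cycle genes 2 (16.7%, near the 16.4% of all genes) rose in CD4+ TEM and 6 in CD8+ TEM cells, and with equal array medians 0 rose and 6 fell in CD4+ TEM and 3 rose and 2 fell in CD8+ TEM cells. Among those that rose on the deposited scale was fumarase *Fh1* (0.88 and 1.48), while *Suclg2* and *Idh3a* rose in CD8+ TEM cells by 1.23 and 1.10.

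Of 7 carriers and uncouplers 4 rose in CD4+ TEM, 3 in CD4+ memory and 6 in CD8+ TEM cells, against 2, 2 and 4 with equal array medians, where 1 fell in CD4+ TEM cells. On the deposited scale these shares were 57.1%, 42.9% and 85.7%, against 16.4%, 13.5% and 20.9% of all genes. *Atpif1*, the inhibitor of ATP synthase hydrolysis, rose by 2.54, 1.87 and 2.40, and the ADP/ATP carrier *Slc25a4* by 1.67, 1.31 and 1.56. Of 34 assembly factors outside the naming rule 5 rose and 3 fell in CD4+ TEM, 3 rose and 5 fell in CD4+ memory, and 8 rose and 3 fell in CD8+ TEM cells, while with equal array medians 3 rose and 10 fell, 1 rose and 10 fell, and 7 rose and 6 fell. The rising shares (14.7% in CD4+ TEM and 23.5% in CD8+ TEM cells) were near those of all genes (16.4% and 20.9%). *Nubpl*, which delivers iron-sulfur clusters to complex I, rose by 1.61, 1.10 and 2.18, and the copper chaperone *Cox17* by 1.05, 0.70 and 1.72. The complex III factor *Bcs1l* rose by 1.70 and 1.74 in CD4+ TEM and memory cells, and *Ttc19*, which clears Rieske protein fragments, fell there by 1.93 and 2.27.

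Among the regulators of mitochondrial biogenesis more genes fell than rose. Of 16 measured, 1 rose and 6 fell in CD4+ TEM, 1 rose and 4 fell in CD4+ memory, and 2 rose and 5 fell in CD8+ TEM cells, while with equal array medians 11, 10 and 11 fell and 1, 0 and 0 rose. On the deposited scale the falling shares were 37.5%, 25% and 31.25%, against 10.1%, 9.78% and 17.2% of all genes. The rising shares were 6.25%, 6.25% and 12.5%, against 16.4%, 13.5% and 20.9% of all genes. *Ppargc1b*, a coactivator of respiratory genes, fell by 1.83, 1.85 and 1.81, and its better known relative *Ppargc1a* read 2.8 to 3.3 on every array. *Nrf1* fell by 0.81 in CD4+ TEM and 0.58 in CD8+ TEM cells, the mtDNA polymerase *Polg* by 0.57 and 0.68, *Gabpa* by 0.63 and the mtDNA packaging factor *Tfam* by 0.59 in CD4+ TEM cells, and the mtDNA transcription factor *Tfb2m* by 1.01 in CD4+ TEM and 1.74 in CD4+ memory cells. *Myc* rose by 0.96 in CD4+ TEM, 0.76 in CD4+ memory and 0.58 in CD8+ TEM cells, and *Gabpb1* by 0.42 in CD8+ TEM cells, which turned to -0.11 with equal array medians. *Polrmt*, the mitochondrial RNA polymerase, fell by 2.56 in CD8+ TEM cells, with 8.0 and 7.1 on the TEM arrays against 10.1 and 10.2 on the naïve CD8+ arrays, which stood above all others. *Pprc1* fell by 0.91 in CD8+ TEM and 0.96 in CD4+ memory cells. *Esrra*, *Ssbp1*, *Tfb1m*, *Twnk* and *Yy1* were called in none of these 3 contrasts.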

How the data were processed

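RNA of sorted T cells was hybridised to Affymetrix whole-genome mouse arrays, 10 arrays in 5 groups. The authors deposited log2 values made by robust multi-array averaging (RMA) with BRB-ArrayTools (version not given in the sources used here), and the number of arrays limits the precision. Of 45101 probe sets, 64 controls and those with several gene symbols (932) or none (9160) were left out, and 34741 of 34945 were renamed through the Entrez identifier. The brightest probe set stood for each of 18193 genes. A group-means model was fitted over all 10 arrays with limma 3.58.1 in R 4.3.3 (5 residual degrees of freedom), and p-values were adjusted by Benjamini-Hochberg over all genes, with calls at 0.05. The method was tested on simulated data. Over the comparisons it called 0 to 2% of true log2 changes of 0.5, 20 to 46% of those of 1 and 68 to 90% of those of 2. Of its calls 2.63 to 6.8% were false. The simulated data held far fewer changed genes than these data, which makes the adjusted threshold stricter. A gene that was not called may still have changed. Named genes were all members of complex II, cytochrome c, the complex I core and the restricted isoforms, the 5 largest called rises and falls of each comparison, up to 15 called CD4+ to CD8+ differences, all regulators of mitochondrial biogenesis, up to 4 called genes of each other list, and other members as examples. Members and lists were chosen with earlier results of these data known, and the direct CD4+ to CD8+ comparisons were added after the levels were seen. Replicate numbers did not pair the samples (correlations of deviations -0.04 to 0.03). The alternatives concerned probe set choice, filters, scaling, moderation, blocking and single arrays.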

Additional observations from a re-analysis of the deposited data

Results flagged for a closer look

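The change from naïve to TEM cells differed between CD4+ and CD8+ cells, by limma's test of the difference over all genes, for 15 of the 92 respiratory chain genes and for *Polrmt*. Values are the CD4+ log2 change minus the CD8+ log2 change. In complexes II and III and cytochrome c they were *Uqcrc1* (-1.39), *Uqcrq* (-1.32), *Uqcrfs1* (-0.94), *Sdhb* (-1.10), *Sdhc* (-1.06) and *Cycs* (-1.06). In complex I and complex IV they were *Ndufa8* (-0.88), *Ndufb6* (-0.71) and *Cox4i1* (-0.84). In ATP synthase they were *Atp5g1* (-1.10), *Atp5j* (-0.98), *Atp5l* (-0.88), *Atp5pb* (-0.84) and *Atp5b* (-0.79). The difference ran the other way for *Polrmt* (2.76), the mitochondrial RNA polymerase, and *Cox7c* (3.68), which both read highest on the naïve CD8+ arrays.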

How the results depend on the processing

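With 2 arrays a group, calls moved with the setting more than medians did. Setting array medians equal gave 6 higher and 31 lower in CD4+ TEM cells (median -0.24), 37 and 14 in CD8+ TEM (0.31), 5 and 17 in CD4+ memory (-0.15), 0 higher and a median of -0.079 between CD4+ TEM and memory, 57 and 1 between naïve CD4+ and CD8+ cells (0.66), and 1 higher with a median of 0.16 between CD4+ and CD8+ TEM cells. Quantile normalization gave 5 lower in CD4+ TEM (median 0.32) and in memory, 0 higher between CD4+ TEM and memory and for the difference, and 2 lower between naïve cells. Moderation with trend gave 41 higher in CD4+ TEM, 22 higher and 5 lower in memory, 2 higher between CD4+ TEM and memory, 2 and 25 for the difference, 41 higher between naïve cells, and 1 and 4 between TEM cells.

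Averaging probe sets gave medians of 0.31 and 0.21 in CD4+ TEM and memory, 4 lower in CD8+ TEM, and 2 higher between CD4+ TEM and memory and for the difference. Probe sets not marked as matching several transcripts gave 5 lower in CD8+ TEM, 2 higher for the difference, and 1 lower between TEM cells (-0.11). The filter on dim genes gave 1 lower in CD8+ TEM, 0 higher for the difference and 5 lower between TEM cells. The variation filter gave medians of 0.78 in CD4+ TEM, 1.46 in CD8+ TEM (26 and 4), 0.51 in memory, 0.25 between CD4+ TEM and memory, -0.65 for the difference (3 and 3) and -0.15 between TEM cells (1 and 0), and 9 higher between naïve cells. Fitting only the groups compared gave 0 higher between CD4+ TEM and memory, 5 and 1 between naïve cells, and 5 lower between TEM cells. The replicate block gave 27 higher and 2 lower in CD4+ TEM, 61 and 2 in CD8+ TEM, 12 and 3 in memory, 0 between CD4+ TEM and memory, 1 and 12 for the difference, 18 and 2 between naïve cells, and 0 and 2 between TEM cells.

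With each array left out, genes higher ranged over 11 to 36 in CD4+ TEM, 50 to 66 in CD8+ TEM, 6 to 23 in memory, 0 to 2 between CD4+ TEM and memory, 0 to 1 for the difference and 5 to 41 between naïve cells. Genes lower ranged over 1 to 2 in CD8+ TEM, 3 to 5 in memory, 2 to 30 for the difference, 1 to 4 between naïve cells and 0 to 5 between TEM cells. Medians ranged over 0.66 to 0.99 in CD8+ TEM, 0.22 to 0.28 in memory and -0.58 to -0.32 for the difference. A lone array was taken to vary like the other groups.

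Single genes that changed direction with equal array medians were *Atp5md* (-0.087), *Cox7a2* (-0.11), *Ndufa1* (-0.042), *Ndufa8* (-0.0054), *Ndufb6* (-0.12) and *Uqcrfs1* (-0.063) in CD4+ TEM, and *Atp5o* (-0.010), *Cox6a1* (-0.15), *Ndufb1* (-0.017), *Uqcrb* (-0.065) and *Uqcrh* (-0.089) in CD8+ TEM cells. With averaged probe sets *Ndufb8* turned in CD4+ TEM (-0.60), CD8+ TEM (-0.095) and memory (-0.68), *Atp5c1* (-1.34), *Ndufab1* (-0.19) and *Ndufs4* (-0.48) in CD8+ TEM, and *Atp5g2* (-0.22) and *Uqcrq* (-0.071) between naïve cells. Without probe sets marked as matching several transcripts *Cox5b* (-0.071), *Ndufa12* (-1.71), *Ndufb2* (-1.0), *Ndufb8* (-2.10) and *Uqcrq* (-0.70) turned in CD4+ TEM, *Atp5c1* (-3.31), *Atp5g1* (-0.81), *Ndufa12* (-0.90), *Ndufb2* (-0.74), *Ndufb8* (-1.57) and *Uqcrq* (-2.14) in CD8+ TEM, *Ndufb8* (-2.0) in memory, *Atp5g1* (0.29) and *Uqcrq* (1.44) in the difference, and *Atp5g1* (-0.36), *Sdha* (-0.080) and *Uqcrq* (-1.60) between naïve cells. With the variation filter *Cox5b* (-0.071) turned in CD4+ TEM, *Atp5c1* (-3.31), *Ndufa3* (-0.68) and *Ndufs4* (-3.81) in CD8+ TEM, and *Ndufs4* (-1.27) between naïve cells. Probe set choice changes which transcript is read, and other causes were not tested.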
